A study of Mus musculus with 22 samples.

Results

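The H3K4me3 ChIP-seq peak lists of G1ER (G1E-ER4) cells at 6 h of β-estradiol were compared with those at 2 h. These were 4 of the 22 lists of the series, with 2 replicates at each time point, chosen by the hour and antibody in the sample titles. The other lists comprised 6 H3K4me3 lists (0, 12, and 24 h), 10 H3K27ac lists (0, 2, 6, 12, and 24 h), and 2 CTCF lists (0 and 24 h). G1ER cells are a mouse erythroid progenitor line derived from Gata1-null cells, and every group carried the same constitutively expressed GATA1-ER fusion. The line is 1 clone, grown with stem cell factor and erythropoietin. Both the 2 h and the 6 h cells had been given 0.1 µM β-estradiol, the 0 h cells none, so the comparison concerned an early step of induced differentiation and not treatment against no treatment.

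H3K4me3 is deposited around transcription start sites (TSSs) by SET1 and MLL complexes, and CpG-rich promoters of active genes carry it most strongly. GATA1 activates erythroid genes such as those for globins and heme enzymes and represses genes of the progenitor state, among them *Kit* and *Gata2*. H3K27ac marks active enhancers and promoters, and CTCF marks insulators and loop anchors.

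The peaks of the 4 lists merged into 15099 regions. A region was called gained where both 6 h lists and neither 2 h list had a peak of at least 1 bp in it, and lost in the reverse case. There were 101 gained regions, 0.669% of all regions, and 153 lost regions, 1.01% of all. The central 200 bases of the 2 gained regions and of the lost region with the highest peak scores are shown on the plus strand of GRCm38, together with those of the gained region at the *Acp5* promoter. Capitals mark the GATA motif, read on both strands and spelled as GATA with an adenine or thymine before it and an adenine or guanine after it. The windows lay at chr15:37100444-37100643 (nearest gene *Gm9509*, between genes), chr19:59322416-59322615 (the coding exon of *Rps12-ps3*, inside *Pdzd8*), chrX:155154983-155155182 (beside an exon of the pseudogene *Amd-ps1* that the region overlaps, nearest protein-coding gene *Cldn34b2*), and chr9:22135104-22135303 (in *Acp5*, outside its exons).
Gained near Gm9509: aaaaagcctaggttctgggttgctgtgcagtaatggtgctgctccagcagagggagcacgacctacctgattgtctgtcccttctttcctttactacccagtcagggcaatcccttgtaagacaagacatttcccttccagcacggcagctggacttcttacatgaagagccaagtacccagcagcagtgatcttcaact
Gained at Rps12-ps3: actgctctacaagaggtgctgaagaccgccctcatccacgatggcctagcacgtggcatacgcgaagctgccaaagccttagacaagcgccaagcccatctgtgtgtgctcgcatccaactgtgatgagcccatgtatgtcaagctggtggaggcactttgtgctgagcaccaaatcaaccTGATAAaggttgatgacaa
Lost near Cldn34b2: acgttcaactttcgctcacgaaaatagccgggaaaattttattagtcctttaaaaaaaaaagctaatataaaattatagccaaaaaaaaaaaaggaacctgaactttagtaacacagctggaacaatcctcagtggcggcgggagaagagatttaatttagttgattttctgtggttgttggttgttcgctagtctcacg
Gained at Acp5: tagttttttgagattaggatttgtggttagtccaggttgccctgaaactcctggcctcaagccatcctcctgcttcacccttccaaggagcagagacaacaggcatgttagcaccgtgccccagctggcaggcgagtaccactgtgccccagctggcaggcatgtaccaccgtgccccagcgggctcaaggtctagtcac
The 4 windows held from 2 to 8 CpG dinucleotides each. A GATA motif was found once in the *Rps12-ps3* window and in none of the other 3. Such a motif lay in the central 200 bases of 3015 of the 15097 regions on assembled chromosomes. The match of letters is a description and says nothing of GATA1 binding.

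The cells were checked against markers of the lineages that such cultures could hold. A promoter window ran from 2 kb before to 2 kb after a gene's TSS. Of 6 erythroid markers, 4 had an H3K4me3 peak in all 4 lists, *Klf1*, *Epor*, and *Slc4a1* among them, and *Alas2* had one in 3. *Tal1*, which encodes a hematopoietic transcription factor, had no peak in its window in any of the 4 lists, and neither *Gata1* nor *Gata2* did. Of 6 mast cell markers, *Cpa3*, *Hdc*, and *Ms4a2* had a peak in all 4 lists, and of 6 megakaryocyte markers *Itga2b* and *Gp1ba* did. In these lists peaks covered only 80 to 238 bp of the *Itga2b* window, against 1685 to 1884 bp for *Gp1ba*. None of the 6 myeloid, 6 lymphoid, or 6 non-hematopoietic markers had a peak in any of the 4 lists. A promoter without a listed peak is not shown to lack the mark.

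No difference in list size between the time points was larger than the spread between replicates. The 2 h lists held 14090 and 13196 peaks and the 6 h lists 13491 and 13468, so that the 6 h lists lay between the 2 h replicates. The peaks covered 32.0 and 29.3 Mb at 2 h and 30.7 and 29.3 Mb at 6 h. Mean peak length was 2247 ± 38.1 bp (SD, n = 2) at 2 h and 2226 ± 74.0 bp (SD, n = 2) at 6 h. In exact two-sided permutation tests the difference gave p = 1 for the number of peaks, p = 0.667 for the covered length, and p = 1 for the mean length, and 2 lists against 2 cannot go below 0.333. The labels do not say whether replicates were separate cultures, so p-values measure only the spread between these lists. Read depth was not available, so its part was not tested. The shared length of 2 lists over their union (Jaccard index) was 0.841 for the 2 h replicates, 0.842 for the 6 h replicates, and 0.832 to 0.854 for the 4 pairs across time points. The replicate 1 list at 2 h covered the most, with 589 regions found in no other list against 177 to 289 for the other 3.

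Of the 15099 regions, 12166 (80.6%) had a peak in all 4 lists, 799 in 3, 805 in 2, and 1329 in 1. Regions with a peak in exactly 2 lists can be read by pair. The gained pair (both 6 h lists) counted 101 regions and the lost pair (both 2 h lists) 153. The 4 pairs that join 1 list of each time point counted 206 and 203 regions with 2 h replicate 1, and 71 and 71 with 2 h replicate 2. The mixed counts thus differed with the 2 h list in the pair, and the gained and lost counts lay between them. The gained pair holds neither 2 h list and the lost pair holds both, so no mixed pair is a like comparison for either. Leaving out 1 of the 4 lists relaxes the definition, and gained regions then numbered 412 without 2 h replicate 1, 180 without 2 h replicate 2, 394 without 6 h replicate 1, and 378 without 6 h replicate 2. Lost regions numbered 334, 746, 385, and 335 in the same order. With peaks limited to scores at or above the pooled median there were 90 gained and 7 lost regions. These were other regions, since no peak of the 101 gained or 153 lost regions scored above 167.8. The median score itself was higher in the 6 h replicate 2 list (1059.6) than in the other 3 (852 to 878).

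**Figure D1:**
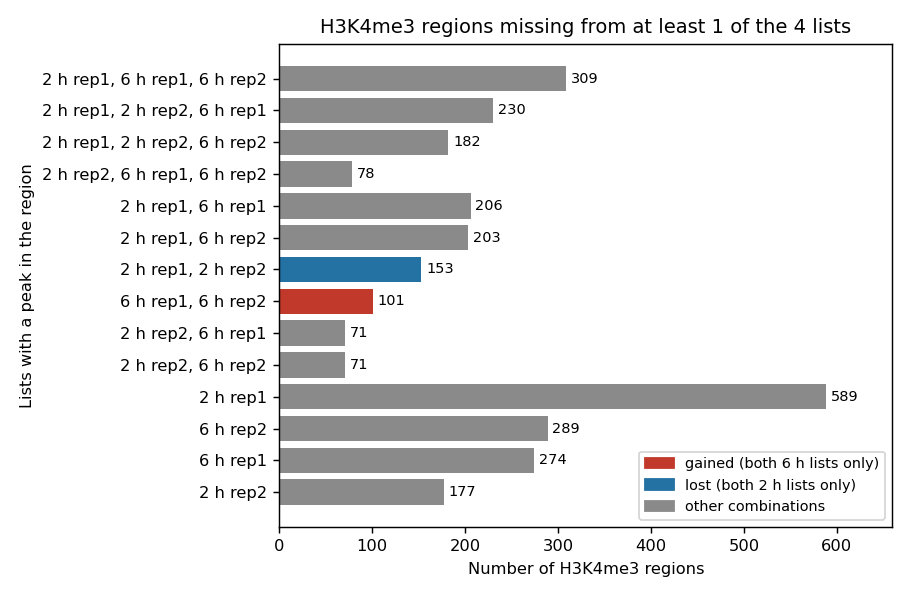
Number of H3K4me3 regions (x axis) by the combination of lists that had a peak there (y axis), for the regions missing from at least 1 of the 2 h and 6 h lists. The gained bar (101, red) and the lost bar (153, blue) lie between the grey bars of pairs with 1 list of each time point. Those bars are 71 and 71 with 2 h replicate 2, and 203 and 206 with 2 h replicate 1. The longest bar is that of regions found in the 2 h replicate 1 list alone (589).

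Gained and lost regions were narrow, low-scoring peaks, mostly away from protein-coding promoters. Their median length was 783 bp for gained and 856 bp for lost regions, against 2514 bp for regions in all 4 lists. Peaks were ranked by deposited score within their own list, and each region was given the mean percentile of its peaks. The median percentile was 5.70 for gained and 6.84 for lost regions, and 56.0 for regions in all 4 lists. The highest-ranked member reached 14.9 among gained and 17.4 among lost regions. In the 6 h lists the scores of gained peaks ran from 50.0 to 134.7, and in the 2 h lists those of lost peaks from 50.1 to 167.8, while no deposited score of these lists was under 50.0. Regions found in 1 list only were alike in rank, with a median percentile of 4.20.

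**Figure D2:**
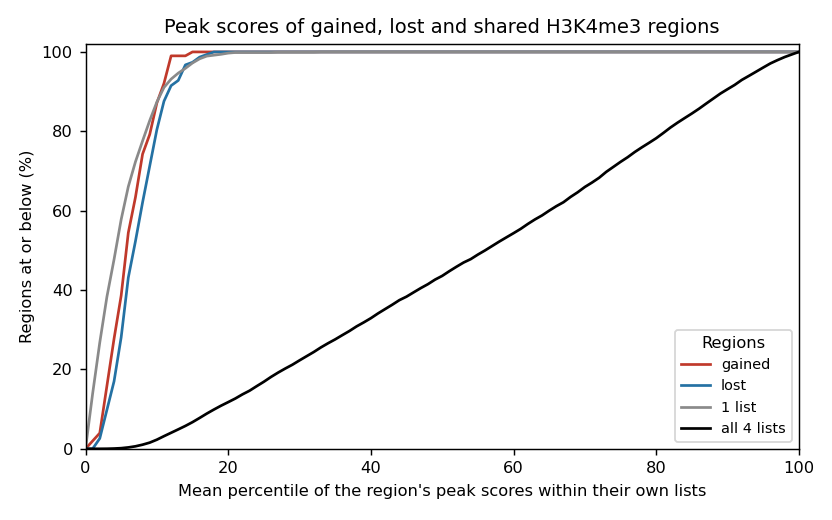
Share of regions (y axis, %) at or below a given mean score percentile (x axis, percentile of the region's peak scores within their own lists), for gained, lost, single-list, and shared regions. The curves of gained and lost regions reach 100% before the 20th percentile, next to that of regions found in 1 list, while regions in all 4 lists have a median of 56.0.

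A protein-coding TSS lay in 14 of the 101 gained regions (13.9%, 95% Wilson interval 8.44% to 21.9%) and in 7 of the 153 lost regions (4.58%, interval 2.23% to 9.14%). The share was 73.1% for regions in all 4 lists, and 9.62% for the 551 regions in 1 list of each time point. These intervals cover counting error only. Of the others, 16 gained and 18 lost regions held another annotated TSS, of a transcript of any type. Of the rest, 9 gained and 13 lost regions touched an exon, 20 and 63 lay in introns, and 42 and 52 lay between genes. Introns thus made up 19.8% of gained and 41.2% of lost regions, a difference that was not tested. The distance to the nearest region that all 4 lists shared had a median of 23181 bp for gained and 31204 bp for lost regions, and only 3 gained and 4 lost regions lay within 2 kb of one.

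In sequence, gained and lost regions were poorer in CpG than shared ones, as were other regions missing from some lists. Over the central 1 kb, the ratio of observed to expected CpG had a median of 0.330 in gained, 0.271 in lost, and 0.640 in shared regions. It was 0.274 in regions found in 1 list and 0.295 in those in 1 list of each time point. GC content was 49.4%, 44.5%, and 55.2% in gained, lost, and shared regions. At least 1 GATA motif, on either strand, occurred in 76.2% of gained and 91.5% of lost regions, in 63.6% of shared regions, and in 67.9% of all regions. The mean number of motifs was 1.91, 2.79, and 1.28 in gained, lost, and shared regions. Regions found in 1 list had 86.8% with a motif at a GC content of 46.3%, and GATA motifs are AT-rich, so base composition moved with these shares and its part was not tested. The CACCC-type motif of KLF factors (CCNCACCC, both strands, containing no GATA motif) occurred in 37.6% of gained, 23.5% of lost, and 39.5% of all regions. CTCF peaks met 23.8% (0 h) and 31.7% (24 h) of gained regions, 9.80% and 12.4% of lost regions, and 31.4% and 38.9% of shared regions.

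Of the 2 gained regions with no peak at 0 or 2 h and a peak in every later list, 1 lay at *Acp5*, which encodes tartrate-resistant acid phosphatase. The region (chr9:22134286-22136122) held the annotated TSS of *Acp5*, an exon, and its untranslated sequence. The covered length there was 0 bp in both 0 h lists and both 2 h lists, 1601 and 1797 bp in the 6 h lists, 1695 and 1790 bp in the 12 h lists, and 1837 bp in both 24 h lists. Every list from 6 h on had a peak where no earlier list did. The score of the *Acp5* peak was 78.6 and 110.1 in the 6 h lists, 154.8 and 180.1 in the 12 h lists, and 341.3 and 372.3 in the 24 h lists, which placed it at percentiles 8.35 and 13.7, then 19.8 and 21.8, then 30.1 and 32.2 of its lists. All 10 H3K27ac lists had a peak in the region, including those at 0 and 2 h. A second H3K4me3 region lay 3072 bp downstream of this TSS (chr9:22130907-22132638), at an alternative *Acp5* TSS, and was present in all lists. Its score percentile began at 38.8 and 41.2 (0 h), went through 36.7 and 32.7 (2 h), 31.7 and 34.8 (6 h), and 28.7 and 22.5 (12 h), and ended at 7.32 and 7.78 (24 h). By the mean of 2 lists, the peak at the upstream start of *Acp5* took a higher rank at each time point from 6 h on, and the downstream one a lower rank, although the 2 h and 6 h lists overlapped for the latter.

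Of the other 13 gained regions with a protein-coding TSS, none had a peak in all 4 lists at 12 and 24 h. *Rps12-ps3*, a ribosomal protein pseudogene annotated as coding, had 605 and 486 bp at 6 h and a peak in 3 of the 4 later lists. *Fndc10* had 740 and 752 bp at 6 h, and 796 bp in both 0 h lists. *Nlrc5*, an activator of MHC class I genes, had 498 and 597 bp at 6 h and 584 and 508 bp at 0 h. *Plod1*, a collagen lysyl hydroxylase, had 1039 and 1113 bp at 6 h, 1093 bp in 1 of the 0 h lists, and no later peak. *1600002K03Rik* (chr10:80172300-80173871, overlapping *Cirbp*) had 1445 and 1572 bp at 6 h and 1287 bp in 1 list at 12 h. *Gm19426*, *Asphd1*, the potassium channel gene *Kcnk7*, and the Wnt pathway transcription factor gene *Tcf7l2* had between 564 and 1104 bp at 6 h. *Kcnk7* and *Asphd1* had no peak at 0 h and 1 peak in the 4 later lists, whereas *Gm19426* and *Tcf7l2* had a peak in 1 of the 0 h lists. The remaining 4 were *Tmem74*, *Rabgap1l*, *Nxph4*, and *Frmpd1*, with mean score percentiles from 0.807 to 4.82. H3K27ac was present in all 10 lists at 4 of the 14 and absent from all 10 at 9.

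Apart from *Rps12-ps3*, the gained regions that led by score held no protein-coding TSS. The region near *Gm9509* (chr15:37100120-37100967) had 848 and 612 bp at 6 h, 848 and 556 bp at 0 h, none at 12 h, and a peak in both 24 h lists. It was thus missing at 2 h and 12 h and present at the 3 other time points. The region at an exon of *Gfap*, the glial intermediate filament gene (chr11:102895459-102896143, 988 bp from the TSS), had no peak at 0 or 2 h, 685 and 652 bp in the 6 h lists, 685 and 667 bp in the 12 h lists, and 685 bp in both 24 h lists. Its score percentile was 10.1 and 13.4 at 6 h, lower at 12 h (2.58 and 7.58), and 20.1 and 26.1 at 24 h, so that it did not rise steadily, and all 10 H3K27ac lists had a peak in it. Regions at *Rnf207* and 11507 bp from the TSS of *Papss1* had 478 to 907 bp at 6 h and a peak in at least 1 of the 0 h lists. Near *Nudt19* (chr7:35565368-35567712) the 6 h lists had 1073 and 2345 bp, and both 0 h lists had a peak there, of 2329 and 918 bp.

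Lost regions with a protein-coding TSS numbered 7. *Dnajc4*, a gene of the DnaJ co-chaperone family (chr19:6991413-6993599, spanning the TSS, coding and untranslated exons of *Dnajc4* and an end of *Nudt22*), had 2187 and 2073 bp in the 0 h lists, 2109 and 2079 bp in the 2 h lists, and no peak in any list at 6, 12, or 24 h. Every list up to 2 h had the peak and none after it. Its score was 93.5 and 65.0 at 2 h, close to the lowest deposited score. No H3K27ac peak lay in the region in any list, and the peaks on either side of it were present in all 10 H3K4me3 lists. *Cd53*, a leukocyte tetraspanin gene, had 1269 and 1369 bp at 0 h, 1328 and 1313 bp at 2 h, none at 6 h, and 1028 bp in 1 of the 4 later lists. *B3gnt7*, which encodes a glycosyltransferase (chr1:86302857-86303942), had 886 and 987 bp at 0 h, 984 and 732 bp at 2 h, none at 6 h, and between 631 and 922 bp in all 4 later lists, so that 6 h was the only time point without the peak. *Slfn14*, a Schlafen family gene, had 1486 and 996 bp at 2 h and a peak in 3 of the 4 later lists. *Fam129a* had 1503 and 462 bp at 2 h, *Kremen2*, which encodes a Dickkopf receptor, 966 and 587 bp, and *Rab11fip5* 624 and 639 bp, and each of these 3 had a peak in both 0 h lists.

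The lost regions with the highest scores were again away from coding promoters. Near *Cldn34b2* (chrX:155154756-155155409) the 2 h lists had 582 and 654 bp, the 0 h lists none, and the 12 h lists 584 and 446 bp. At 15787 bp from *Rnase10* (chr14:50990923-50991964) the 2 h lists had 991 and 1016 bp, and this region had a peak in every H3K4me3 list except those at 6 h. The regions at *Gm25306*, in *Gm33501*, and at exons of *Slc35a3* had 840 to 1201 bp at 2 h. In an intron of *Rbm20*, an RNA splicing regulator gene (chr19:53808620-53810345), covered length was 1670 and 1202 bp at 2 h.

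The lists outside the comparison showed whether these changes preceded or outlasted 2 and 6 h. Of the gained regions, 45.5% and 56.4% had a peak in the 0 h lists, 37.6% and 36.6% in the 12 h lists, and 29.7% and 36.6% in the 24 h lists. Each 0 h list thus had a peak in more gained regions than any later list. Of the lost regions, 61.4% and 77.1% had a peak in the 0 h lists, 30.7% and 30.1% in the 12 h lists, and 25.5% and 22.2% in the 24 h lists. Shared regions had a peak in 97.4% to 99.5% of cases in the same lists. Over all regions the shares were 89.8% and 91.5% at 0 h and 84.2% to 86.1% at 12 and 24 h. The 0 h lists held 14014 and 14452 peaks and the later lists 12925 to 13239, and the part of list size was not tested. The mean share fell from 69.3% ± 11.1 (SD, n = 2) at 0 h to 27.1% ± 4.01 (SD, n = 4) at 12 and 24 h for lost regions, with no overlap between the 2 sets of lists (difference of -42.2 percentage points, exact two-sided permutation p = 0.133, Benjamini-Hochberg adjusted p = 0.267 over 4 tests). For gained regions it was 51.0% ± 7.70 (SD, n = 2) and 35.1% ± 3.66 (SD, n = 4), lower in all 4 later lists (difference of -15.8 points, exact p = 0.133, adjusted p = 0.267). With 2 lists against 4, 0.133 is the smallest p possible, so neither difference could pass 0.05.

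Few members had the course of a lasting change. Among the 101 gained regions, 31 had no peak in either 0 h list and 7 had one in all 4 later lists, but only 2 had both, those at *Acp5* and *Gfap*. Among the 153 lost regions, 82 had a peak in both 0 h lists and 65 in none of the 4 later lists, and 33 had both. For gained and for lost regions, whether more had both than the single counts alone would give was not tested. Of these 33, 17 lay in introns, 10 between genes, 3 at another annotated TSS, 2 at exons, and 1 (*Dnajc4*) at a protein-coding TSS. The highest-ranked of them were in an intron of *Rad51b* (a DNA repair gene, mean percentile 12.3), 25220 bp from *Papss2* (12.1), and 20440 bp from the TSS of *Zfp846* in an intron of *Gm26733* (11.7), and 1 lay in an intron of *Inpp5d*, a blood cell phosphatase gene, at percentile 4.38.

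**Figure D3:**
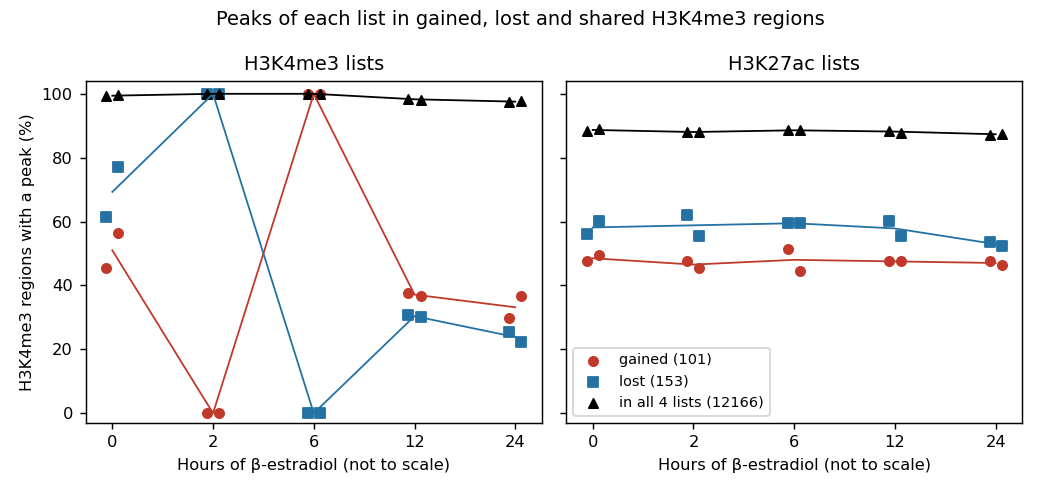
Share of gained, lost, and shared H3K4me3 regions with a peak (y axis, %) in each H3K4me3 list (left) and H3K27ac list (right) at 0, 2, 6, 12, and 24 h of β-estradiol (x axis, not to scale). Points are lists and lines join the means of 2 lists. The 2 h and 6 h H3K4me3 points are fixed at 0% or 100% by the definition. Lost regions had a peak in 61.4% and 77.1% of cases at 0 h and 22.2% to 30.7% at 12 and 24 h, and their H3K27ac shares lay between 52.3% and 62.1%.

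H3K27ac shares at the same regions differed by less than the spread between lists. Among gained regions, 47.5% ± 1.62 (SD, n = 4) had an H3K27ac peak at 0 and 2 h and 47.5% ± 2.26 (SD, n = 6) at 6, 12, and 24 h (exact two-sided permutation p = 1, adjusted p = 1). Among lost regions the shares were 58.5% ± 3.13 (SD, n = 4) and 56.8% ± 3.39 (SD, n = 6) (difference of -1.74 points, exact p = 0.476, adjusted p = 0.635). At least 1 H3K27ac list had a peak in 72 of 101 gained and 108 of 153 lost regions, against 11552 of 12166 shared ones. These shares were 71.3% and 70.6% for gained and lost regions. They were 60.0% for regions found in 1 list and 66.1% for those in 1 list of each time point. Set against the same hours, both 6 h and neither 2 h H3K27ac list had a peak in 2 gained regions and in 0 lost regions, and the reverse held for 1 gained and 2 lost regions. Over all 15099 regions the same patterns counted 116 (0.768%) and 67 (0.444%). All 4 H3K27ac lists of these hours had a peak in 40 gained and 78 lost regions, and in 11268 of all regions.

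Covered length was compared in the regions that all 4 lists shared. The median covered length was 2357 and 2214 bp at 2 h and 2298.5 and 2192 bp at 6 h. The median log2 difference of length (6 h minus 2 h, with 200 bp added) was -0.02, and the middle 50% of regions lay between -0.09 and 0.05. Both 6 h lists exceeded both 2 h lists in 1365 of the 12166 regions (11.2%), and both were shorter in 2155 (17.7%). Full separation of 2 lists from 2 others arises often without any difference, so neither share shows a change in length. Regions with and without a protein-coding TSS had medians of -0.02 and -0.02.

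In limma fits to all 10 H3K4me3 lists, 13770 regions with a peak in at least 2 of the 4 lists were tested, and 1 was longer and 5 shorter at 6 h than at 2 h at an adjusted p under 0.05 (0.0436% of those tested), with 932 at an unadjusted p under 0.05. All 6 were gained or lost regions, so their difference is the presence of a peak. Its size on the log2 scale, its SE, and its p depend on the 200 bp added. These regions had exactly 0 bp in both lists of a time point, where no spread could be measured. They were *Acp5* (3.25 ± 0.18, SE, limma adjusted p = 0.00303), *Dnajc4* (-3.52 ± 0.27, adjusted p = 0.0181), *B3gnt7* (-2.39 ± 0.23, adjusted p = 0.0265), and lost regions in introns of *Togaram1* (-2.75 ± 0.24, adjusted p = 0.0250) and *Ap3b1* (-2.30 ± 0.22, adjusted p = 0.0265) and 50385 bp from the TSS of *Gm12895* (-2.44 ± 0.24, adjusted p = 0.0265). Except for *Acp5* and *Dnajc4*, each had a peak in both 0 h lists and again at 12 h. With 50 or 1000 bp added in place of 200 bp, the *Acp5* value was 5.13 or 1.43. Fitted to these 4 lists alone, limma made no call (514 at an unadjusted p under 0.05). Leaving out a list changed the counts of longer and shorter regions to 54 and 6 without 2 h replicate 1, 9 and 3 without 2 h replicate 2, 7 and 142 without 6 h replicate 1, and 3 and 22 without 6 h replicate 2.

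Promoter windows read the same lists again by gene, so they are no separate support. Of 9871 promoters with a peak in at least 2 of the 4 lists, 3 were longer and 2 shorter at 6 h (0.0507%, limma adjusted p under 0.05), and 508 (5.15%) had an unadjusted p under 0.05. By limma the longer promoters were *Acp5* (3.25 ± 0.12, SE, adjusted p = 0.000276), *Gfap* (2.12 ± 0.20, adjusted p = 0.0409), and *3110040M04Rik* (2.64 ± 0.27, adjusted p = 0.0477), and the shorter ones *Dnajc4* (-3.52 ± 0.20, adjusted p = 0.00235) and *B3gnt7* (-2.39 ± 0.19, adjusted p = 0.0174). Each of these promoters met a gained or lost region and had 0 bp in both lists of a time point. Their differences are thus also the presence of a peak, with no spread measured there and a size that depends on the length added. Among the alternatives that tested them, the *3110040M04Rik* call was lost in 11 of 12 and the *Gfap* call in 9 of 12. For each, these included the fit to the 4 lists alone and that with a replicate block. The *3110040M04Rik* promoter had 1369 and 1701 bp at 0 h, none at 2 h, 947 and 1159 bp at 6 h, and none at 12 or 24 h. A peak was thus listed at 0 and 6 h and at no other time point, alike in both replicates. A window without a listed peak is not shown to lack the mark. At *Gfap* the window held 685 and 652 bp at 6 h and 1134 and 1104 bp at 24 h. The window of *Acp5* had 2539 bp in both 24 h lists, more than the 1601 and 1797 bp at 6 h.

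**Figure D4:**
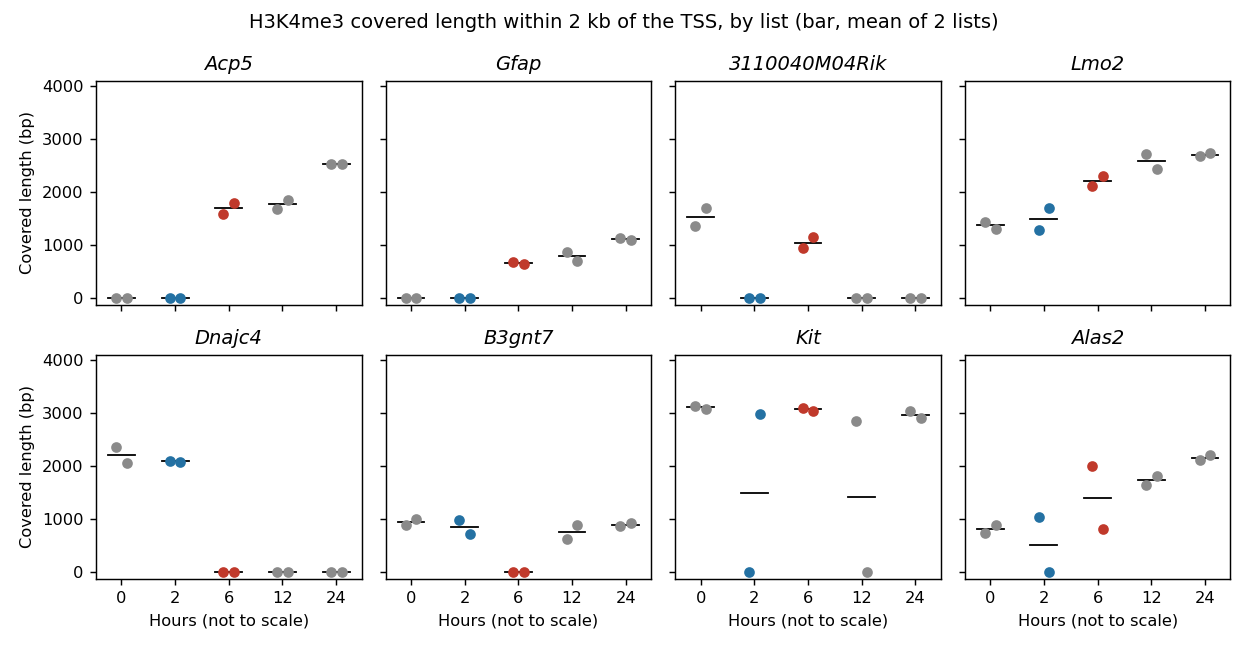
H3K4me3 covered length (y axis, bp) within 2 kb of the TSS of 8 genes, by hours of β-estradiol (x axis, not to scale). Each point is a list (2 h blue, 6 h red, others grey) and each bar the mean of 2 lists. *Acp5* and *Gfap* went from 0 bp at 2 h to 1601 and 1797 bp and to 685 and 652 bp at 6 h and stayed covered, *Dnajc4* went from 2109 and 2079 bp to 0, and *Kit* had 0 bp in 1 list at 2 h and 1 at 12 h.

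None of the promoters of erythroid, heme, progenitor, or other listed genes passed the test, and none met a gained or lost region. Over all 21842 protein-coding genes only 20 promoters met a gained and 9 a lost region, so that none in lists of 10 to 42 genes is close to that background. Among 18 tested promoters of genes activated in erythroid differentiation, the median log2 difference was 0.03, against -0.01 over all tested promoters. *Tmem184a* had 0 and 1263 bp at 2 h and 1787 and 1661 bp at 6 h (log2 difference of 1.83, limma adjusted p = 0.933). *Alas2*, the first enzyme of heme synthesis in erythroid cells, had 752 and 892 bp at 0 h and 1041 and 0 bp at 2 h. It had 2008 and 812 bp in the 6 h lists and 2113 and 2215 bp in the 24 h lists. *Slc4a1*, the anion exchanger of the red cell membrane, had 2277 and 2081 bp at 2 h and 1836 and 1761 bp at 6 h, and *Epb42*, a membrane skeleton protein, had 1845 and 1909 bp and then 1921 and 879 bp. The globin promoters *Hbb-bs* (2026 and 1884 bp at 2 h, then 1744 and 1779 bp) and *Hba-a1* (2685 and 2421 bp, then 2525 and 2649 bp) were covered at both time points.

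The 20 promoters of heme and iron genes had a median log2 difference of 0.01, and 19 had a peak in all 4 lists. *Ppox*, which makes protoporphyrin, had 3285 and 3079 bp at 2 h and 3522 and 3447 bp at 6 h (limma log2 difference of 0.12, unadjusted p = 0.00830, adjusted p = 0.933). *Hmox1*, which degrades heme, had 2599 and 1744 bp and then 1658 and 1420 bp. *Cpox*, a heme enzyme upstream of it, had 0 and 3026 bp and then 3194 and 2826 bp. Among 13 tested promoters of progenitor and mast cell genes that are repressed on differentiation the median was -0.02. The histidine decarboxylase gene *Hdc* had 1743 and 1250 bp at 2 h and 1975 and 2506 bp at 6 h, the G protein regulator *Rgs13* 2378 and 1857 bp and then 2329 and 877 bp, and *Rgs1* 2314 and 2047 bp and then 2246 and 1190 bp. For *Rgs13* and *Rgs1* the 2 lists at 6 h differed by more than the means of the time points did, whereas for *Hdc* both 6 h lists lay above both 2 h lists (limma adjusted p = 1).

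Of 14 tested promoters of hematopoietic transcription factors, with a median of -0.03, that of *Lmo2*, an adaptor of the TAL1 and GATA complex, had the lowest p. Its covered length was 1450 and 1308 bp (0 h), 1296 and 1703 bp (2 h), 2125 and 2306 bp (6 h), 2725 and 2449 bp (12 h), and 2680 and 2739 bp (24 h). Both 6 h lists lay above both 2 h lists (log2 difference of 0.52 ± 0.12, SE, limma unadjusted p = 0.00345), but with an adjusted p of 0.852 over all promoters it did not pass. *Meis1* had 1621 and 1417 bp and then 1871 and 1004 bp. The 16 immediate early promoters (median 0.01, from -0.07 at *Ier3* to 0.17 at *Btg2*), the 18 of the H3K4 methylation machinery (median 0, from -0.07 at *Cxxc1* to 0.09 at *Kdm5c*), and 3 estrogen target promoters (median 0.00) held narrower ranges. The 12 housekeeping promoters had a median of 0.02, with *B2m* lowest at -0.26. Of 41 matched promoters that the study captured by its own choice, 30 had a peak in all 4 lists, 35 were tested, and their median was -0.01.

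Several large listed differences came from a broad peak absent from 1 list. *Kit*, the stem cell factor receptor gene, had a window length of 0 and 2988 bp at 2 h and 3106 and 3052 bp at 6 h, with a log2 difference of 2.04 (limma adjusted p = 0.933). Its peak spanned 8533 bp in the 2 h replicate 2 list, with a score of 102.2, and 8662 and 8749 bp at 6 h, with scores of 90.8 and 86.8. *Nfe2*, which encodes the p45 subunit of NF-E2, had 0 and 3624 bp at 2 h and 3617 and 3555 bp at 6 h. The *Nfe2* region held peaks of 6984 to 7292 bp with scores of 160.0 to 228.8 in the 3 lists that had it.

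Score and length were not in proportion over the 4 lists. The median score was 91.7 for peaks under 1 kb, 1360 for those of 3 to 4 kb, and 107.8 for the 90 peaks of 8 kb or more, and no peak exceeded 8935 bp. Of the peaks of 8 kb or more, 88.9% scored below 200, against 1.08% of those of 3 to 4 kb. Regions with a peak of 6 kb or more numbered 278, of which 259 were in all 4 lists and 19 were not, with none gained or lost. The 2 h replicate 1 list lacked 14 of these 19, 6 h replicate 1 lacked 11, 6 h replicate 2 lacked 3, and 2 h replicate 2 lacked 2. The part of peak score and length in the listed presence of broad peaks was not tested.

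**Figure D5:**
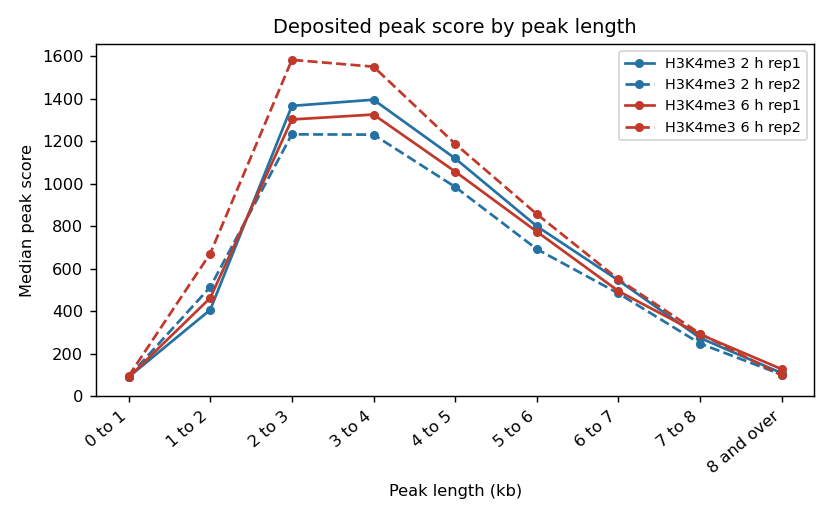
Median deposited score (y axis) of H3K4me3 peaks by length (x axis, kb), for the 2 h and 6 h lists. In every list scores were highest for peaks of 2 to 4 kb and fell with length beyond that, to a pooled median of 107.8 at 8 kb and over.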

How the data were processed

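Peak lists of H3K4me3, H3K27ac, and CTCF ChIP-seq in G1ER cells were used as deposited. Reads were aligned by the authors to mm10 (GRCm38) with Bowtie2 at default settings, and peaks were called per library with MACS (model building off), whose version, control, and threshold are not given in the sources used here. Each deposited peak has a position and a score, which the authors' caller assigned and which is never under 50. The score served only for ranks and cutoffs. Read counts were not analysed here, so depth per list is unknown. The labels also mention a human build, and between 64.0% and 67.8% of peaks held a protein-coding TSS of the mouse annotation, against 6.60% to 6.85% after moving peaks by 50 kb.

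Overlapping peaks of the 4 lists were merged, and covered length per region and per promoter was tested on log2(bp + 200) with limma 3.58.1 (R 4.3.3, trended variance, a mean per time point over 10 lists, Benjamini-Hochberg adjustment), without a replicate block, for features with a peak in at least 2 of the 4 lists. Single values were compared with exact two-sided permutation tests (Python 3.11.15, numpy 2.4.6, pandas 2.3.3), and intervals are Wilson intervals (scipy 1.17.1). Genes came from GENCODE M21 and sequences from the RefSeq GRCm38 genome. The scripts were tested on simulated data.

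Groups came from the hour in each title. Named were the 6 gained and 6 lost regions of highest mean score percentile, the 3 of largest log2 difference each way, at most 10 each way with a protein-coding TSS, features past the limma threshold, and up to 4 members per gene list. Some named regions and 1 sequence are not reported here. Members and lists were chosen with earlier results of these data known. *Rad51b*, *Gm26733*, *Papss2*, *Inpp5d*, the 4 further promoters of low rank, and examples of the broad peaks were named after their values were seen. Alternatives covered the value added to lengths, score cutoffs, merging, windows, filters, scaling, the replicate block, and each list left out.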

Additional observations from a re-analysis of the deposited data

Results flagged for a closer look

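Among the 4 H3K4me3 lists at 12 and 24 h, 24 h replicate 1 stood apart from the other 3 in its share of gained regions with a peak, at 29.7% against 36.6% to 37.6%. It was the only value to stand apart in 6 groups of lists examined, and chance marks about 1 in 20 groups. The cause was not tested.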

How the results depend on the processing

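With peaks limited to scores at or above the pooled median, the differences in list size turned to 433.5 more peaks and 0.938 Mb more at 6 h. Lost regions then numbered 7, none of them among the 153 described, whose peaks all scored below that cutoff. Without 1 list at a time, the differences ranged from -610.5 to 283.5 peaks, from -2.02 to 0.719 Mb, and from -72.7 to 32.0 bp in mean length. Gained regions then ranged from 180 to 412 and lost regions from 334 to 746, since 1 list fewer has to meet the definition. Longer regions ranged from 3 to 54, shorter regions from 3 to 142, longer promoters from 1 to 19, and shorter promoters from 1 to 29. The extremes came without 2 h replicate 1 (54 and 19 longer) and without 6 h replicate 1 (142 and 29 shorter), and the cause was not tested.

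Longer and shorter regions by limma numbered 4 and 8 with 50 bp added, 1 and 2 with 1000 bp added, 0 and 0 in the 4 lists alone (514 at an unadjusted p under 0.05), 2 and 1 with scores at or above the pooled median, 8 and 6 with equal numbers of top-scoring peaks, and 0 and 0 with a peak required in at least 3 lists, where 12965 regions were tested, 695 had an unadjusted p under 0.05, and gained and lost regions cannot enter. Longer and shorter promoters numbered 1 and 1 with 1000 bp added, 0 and 0 in the 4 lists alone (323 at an unadjusted p under 0.05), 1 and 2 with lists scaled by their median, 21 and 1 with the score cutoff, 6 and 3 with equal numbers of peaks, 3 and 5 with windows of 1 kb, and 1 and 4 with windows of 5 kb. The cause was not tested.

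The labels do not say whether replicate numbers pair the lists. Deviations of lists with the same number correlated from -0.084 to 0.028 over 10 pairs of time points, which cannot settle it. With a replicate block, limma gave 1 longer and 0 shorter regions (875 at an unadjusted p under 0.05) and 1 longer and 1 shorter promoter. In the 4 lists with the block it gave 0 and 0 of both kinds, with 601 regions and 391 promoters at an unadjusted p under 0.05.

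The limma call was lost in 2 of 13 alternatives for the *Acp5* region, *Acp5* promoter, and *Dnajc4* promoter. These were the 4-list fits, with and without the block. It was lost in 4 of 13 for the *Dnajc4* region, 3 of 12 for *Togaram1*, and 5 of 13 for *Ap3b1* and *Gm12895*. It was lost in 6 of 13 for the *B3gnt7* region and promoter, 9 of 12 for the *Gfap* promoter, and 11 of 12 for the *3110040M04Rik* promoter. Alternatives that did not test a feature are left out of its count. None of these features was tested with the score cutoff, and none of the regions with a peak required in at least 3 lists. With the score cutoff, no peak of the 0 h or later H3K4me3 lists remained in the gained or lost regions. The differences between these lists were thus fixed at 0 points, so the cutoff cannot show whether they depend on score. With 1 list left out they ranged from -21.3 to -10.4 points for gained and from -50.0 to -34.3 for lost regions, and no p could reach 0.05 in these designs.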
